A study of Mus musculus with 8 samples.

Results

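Complement is a set of proteins that tag surfaces for removal by phagocytes or puncture them. In the classical pathway, the C1q molecule, built from the chains encoded by C1qa, C1qb and C1qc, binds a target, and C4 and then C3 are cleaved and deposited on it. Serping1 encodes the C1 inhibitor, which blocks the proteases of the first step, and Cd59a encodes a membrane-anchored protein that blocks the last step, the assembly of the pore. In the brain, microglia are the main source of C1q, and complement tags synapses and myelin debris for removal.

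The 7 genes C4b, C3, C1qa, C1qb, C1qc, Cd59a and Serping1 were followed by name in 8 single-cell libraries on the 10× platform with 3′ end counting. They are 7 of the 17001 genes listed for both genotypes. All mice were 24 months old. Wild-type mice (labelled C57BL/6, and C57BL/6J in the methods) gave 2 gray matter and 2 white matter libraries, and mice that lack Rag1, and with it mature T and B cells, gave 1 gray matter and 3 white matter libraries (Rag1-/-). The labels give the Rag1-/- strain as NOD.129S7(B6)-Rag-1tm1Mom/J, whereas the methods of the study give the same allele on a C57BL/6J background, and a difference in strain background between the genotypes could not be checked here. Gray matter came from frontal cortex, and white matter from optic tract, medial lemniscus and corpus callosum. Per the labels, 2 tissue samples were combined into each library, whereas the study's list of mice gives other numbers for some libraries. In both genotypes the gray and white matter libraries numbered 1 came from the same pool of mice, as did those numbered 2 in wild-type mice. Genotype coincides with the experiment, the list of genes counted and, by the methods, the release of the counting software. These cannot be told apart from the lack of Rag1. The labels also give 2 batches in each genotype. The wild-type libraries numbered 1 were batch 1 and those numbered 2 were batch 2. Rag1-/- gray matter and Rag1-/- white matter library 1 were batch 1, and Rag1-/- white matter libraries 2 and 3 were batch 2, which has no gray matter. By the methods, these Rag1-/- batches also differed in the release of the counting software. Without Rag1-/- white matter library 1, tissue coincides with batch in Rag1-/- mice. The upper limit on UMIs per cell also differed between the genotypes and, by the methods, between the batches of each genotype. Cells under 20000 UMIs were compared as an alternative.

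The libraries held 584 to 7631 cells, with medians of 6435 to 10375 unique molecular identifiers (UMIs) per cell. No pair of libraries shared more than 15 cell barcodes, and the largest share of the smaller library, 0.321%, was in another pair. The authors' names cover 15604 oligodendrocytes, in clusters Oligo1, Oligo2, age-related oligodendrocytes and interferon-responsive oligodendrocytes (IROs), and 7421 microglia of Rag1-/- mice that were found in the counts. The 8 oligodendrocyte markers summed to between 45517 and 53489 CPM (UMIs of the gene per 1000000 UMIs of the summed cells) in the oligodendrocytes of each library, and the 10 microglial genes to between 30956 and 36578 CPM in microglia-like cells, with no marker at 0. Other cells were clustered here and named by markers, with the suffix -like. The libraries labelled Rag1-/- held 40 T cell-like cells, and wild-type libraries held 403. Rag1 transcripts were counted in both genotypes, between 37 and 108 UMIs in each library labelled Rag1-/- and at most 24 in the others, and since 3′ end reads do not cover the deleted part they do not check the labels.

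In mice the C4 locus on chromosome 17 is duplicated, and C4b lies beside its near copy C4a. On GRCm38 (GENCODE vM21), C4b spans chr17:34728380-34743882 and C4a spans chr17:34809092-34823464, both on the minus strand. Aligned over 5367 bases, the transcripts are 96.1% identical. The ends of the coding sequences are shown because a 3′ end read falls near them. The C4b stretch is read from exons at chr17:34728765-34728897 and chr17:34728486-34728627, and the C4a stretch from chr17:34809476-34809608 and chr17:34809197-34809338. Capitals mark the 3 bases that differ, and the longest run without a difference is 130 bases.
C4b: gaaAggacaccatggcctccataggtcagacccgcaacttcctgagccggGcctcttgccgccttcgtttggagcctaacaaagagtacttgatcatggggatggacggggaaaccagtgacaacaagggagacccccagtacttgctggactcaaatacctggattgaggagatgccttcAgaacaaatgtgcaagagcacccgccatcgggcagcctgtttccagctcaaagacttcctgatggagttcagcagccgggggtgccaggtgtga
C4a: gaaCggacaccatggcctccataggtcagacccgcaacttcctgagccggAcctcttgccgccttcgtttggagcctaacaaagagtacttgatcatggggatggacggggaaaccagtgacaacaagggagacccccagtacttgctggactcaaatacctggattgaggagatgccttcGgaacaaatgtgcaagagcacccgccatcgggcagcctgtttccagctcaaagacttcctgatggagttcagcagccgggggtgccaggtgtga
Reads that fall between the marked bases fit both genes. C4a had 0 UMIs in oligodendrocytes of all 4 wild-type libraries and of Rag1-/- gray matter, and 15, 14 and 17 UMIs in those of Rag1-/- white matter libraries 1 to 3, where C4b had between 15115 and 36970. C4a is among the genes listed for all cells of Rag1-/- but not of wild-type mice, so the wild-type 0 may mean that it was not counted. Counts of C4b may include reads of C4a, and how far this differed between the genotypes was not tested.

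In white matter, C4b was the member with the highest level in oligodendrocytes, whereas C1qa and C1qb lay above it in wild-type gray matter library 1 and in Rag1-/- gray matter and below it in wild-type gray matter library 2. Oligodendrocytes held most of the C4b UMIs of each library. They held 86.2% to 96.5% of the C4b UMIs of the wild-type libraries, 89.9% to 95.6% in Rag1-/- white matter and 61.1% in Rag1-/- gray matter, where only 458 C4b UMIs were counted in all cells. Their part of the cells differed between the libraries. Oligodendrocytes were 284 of 584 and 1119 of 1845 cells in wild-type gray and 494 of 934 and 4106 of 5363 in wild-type white matter. In Rag1-/- gray matter they were 1055 of 3807. The part of these numbers in the C4b shares was not tested. Summed over the oligodendrocytes of a library, C4b reached 130.1 and 89.3 CPM in the wild-type gray matter libraries and 1317 and 1539 CPM in the wild-type white matter libraries. Rag1-/- oligodendrocytes had 29.3 CPM in the gray matter library and 604, 702 and 908 CPM in the white matter libraries. Every white matter library thus lay above every gray matter library, and every Rag1-/- library lay below the wild-type libraries of the same tissue. The group means were 109.7 ± 28.8 CPM (SD, n = 2) and 1428 ± 157 CPM (SD, n = 2) in wild-type gray and white matter, and 738 ± 155 CPM (SD, n = 3) in Rag1-/- white matter.

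**Figure D1:**
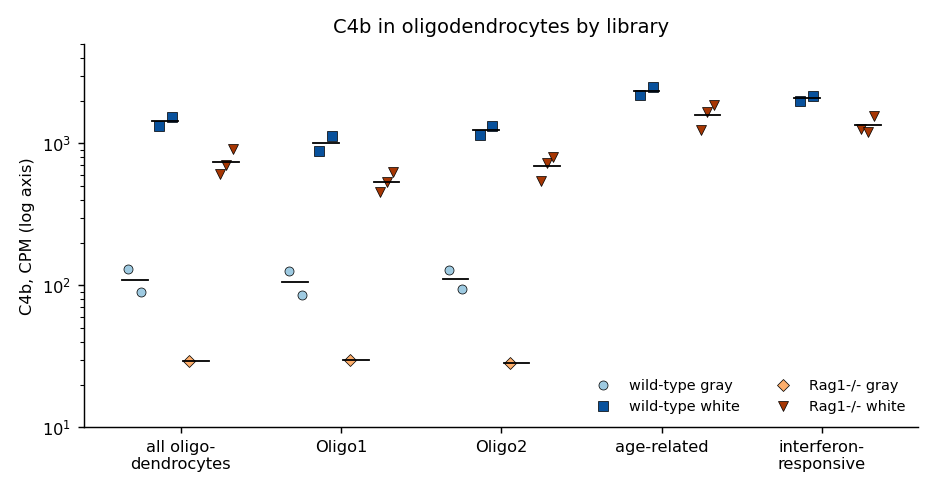
C4b in CPM (log axis) in all oligodendrocytes and in the 4 merged clusters with at least 10 cells in a library, by tissue and genotype. Each point is a library and each bar the mean of a group: the gray matter points lie between 28.4 and 130.1 CPM and the white matter points between 453 and 2489.9 CPM.

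White matter was compared with gray matter in each genotype with the quasi-likelihood test of edgeR on UMIs summed per library. In wild-type mice, 2 of the 6 members tested passed an adjusted p of 0.05, beside 1.00% of all 13069 genes tested. C4b was higher in white matter by 3.74 on the log2 scale (SE 0.24, edgeR adjusted p = 0.0013), and Cd59a, described further on, was the other. Without wild-type gray matter library 2, C4b had a log2 difference of 3.51 with an adjusted p of 0.05, just over the threshold, where no gene of the table passed. In Rag1-/- mice, 1 of 6 members tested passed, beside 0.436% of all genes. This was C4b, higher in white matter by 4.68 (SE 0.34, edgeR adjusted p = 0.0036), and it passed with any white matter library left out. Rag1-/- gray matter had a single library, whose spread was taken to be that of the other groups. Within the pair of Rag1-/- libraries from the same mice, C4b was 29.3 CPM in gray and 604 CPM in white matter.

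The tissue difference of C4b was seen in the main clusters taken alone. The authors' subclusters inside them (Oligo1a to Oligo1c and Oligo2a to Oligo2c) differed in size between the tissues. Oligo1b held 25.7% and 39.1% of the oligodendrocytes of wild-type gray and 11.9% and 3.99% of those of white matter. Oligo2c held 0.352% and 0.0894% against 7.29% and 8.48%. The part of this make-up in the differences below was not tested. In Oligo1, wild-type gray matter had 126 and 85.5 CPM and white matter 879 and 1133 CPM. In Oligo2 these values were 128 and 93.7 CPM against 1141 and 1329.8 CPM. The Oligo2 value of gray matter library 1 rests in large part on 1 cell with 52 C4b UMIs. Oligo2c, 0.352% of the oligodendrocytes of that library, held 14.6% of their C4b UMIs. The log2 differences were 3.30 in Oligo1 (SE 0.23, edgeR adjusted p = 0.0010) and 3.54 in Oligo2 (SE 0.22, edgeR adjusted p = 4.7e-05), and both passed with any wild-type library left out. Among the members tested, 1 of 5 passed in Oligo1, beside 0.114% of all genes, and 2 of 5 in Oligo2, beside 1.24%. Oligo1 of Rag1-/- mice had 29.6 CPM in gray and 453, 535 and 626 CPM in white matter. Oligo1 and Oligo2 were also mixed in the same fixed proportions for every library. This leaves out age-related oligodendrocytes and IROs but keeps Oligo2c. The mix gave 127 and 89.4 CPM in wild-type gray matter and 1003 and 1227 CPM in white matter. The same mix gave 29.1 CPM in Rag1-/- gray matter and 494, 627 and 708 CPM in Rag1-/- white matter.

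More cells of white matter had a C4b UMI, and since this share rises with the level alone, it does not tell a larger number of expressing cells from more C4b per cell. The median Oligo1 or Oligo2 cell of gray matter had 0 C4b UMIs in each library, whereas the median Oligo1 cell had 7 and 9 UMIs in the wild-type white matter libraries. In Rag1-/- white matter the median Oligo1 cell had 3, 4 and 3 UMIs. With each cell thinned to 2000 UMIs, 15.3% and 13.4% of wild-type gray matter oligodendrocytes and 75.6% and 79.7% of wild-type white matter oligodendrocytes had a C4b UMI. For Rag1-/- mice the thinned share was 5.37% in gray and 55.9%, 55.5% and 62.5% in white matter. Without thinning the shares were 36.3%, 37.4%, 93.1% and 93.1% in the wild-type libraries, in the same order, and 17.3%, 79.6%, 83.3% and 85.4% in the Rag1-/- libraries. The thinned shares rest on 277 to 4079 cells per library that had at least 2000 UMIs. Microglia-like cells, whose C4b was low, had thinned shares of 0.104% to 0.981% in gray and 1.24% to 10.8% in white matter. Median depths were 8571 to 12766 UMIs in oligodendrocytes and 5637 to 11144 in microglia-like cells.

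Among white matter clusters, C4b was highest in Oligo2c and in age-related oligodendrocytes and lowest in Oligo1b. The authors drew these clusters from the most variable genes of the same cells, and whether C4b was among them is not known here. The levels therefore describe the clusters and were not tested. Oligo2c had 2273 and 2482 CPM in the wild-type and 1308, 1887 and 1968 CPM in the Rag1-/- white matter libraries. Age-related oligodendrocytes had 2189.9 and 2489.9 CPM and, in Rag1-/- mice, 1241, 1664 and 1859.6 CPM. Oligo2c and age-related oligodendrocytes overlapped in both genotypes. IROs followed with 1994 and 2140.1 CPM and, in Rag1-/- mice, 1270.0, 1196 and 1567 CPM, below age-related oligodendrocytes in both wild-type libraries and overlapping with them in Rag1-/- mice. Oligo1c had 1090.4 and 1228 CPM in the wild-type libraries, and Oligo1a, Oligo2a and Oligo2b lay between 647 and 1168 CPM. Oligo1b had 640 and 555 CPM in wild-type and 167, 263 and 391 CPM in Rag1-/- white matter, where it was lowest in each library. Oligo2c held between 7.57% and 10.6% of the white matter oligodendrocyte UMIs but between 15.7% and 20.4% of those of C4b. Gray matter held 3 Oligo2c cells and 1 age-related cell in all.

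**Figure D2:**
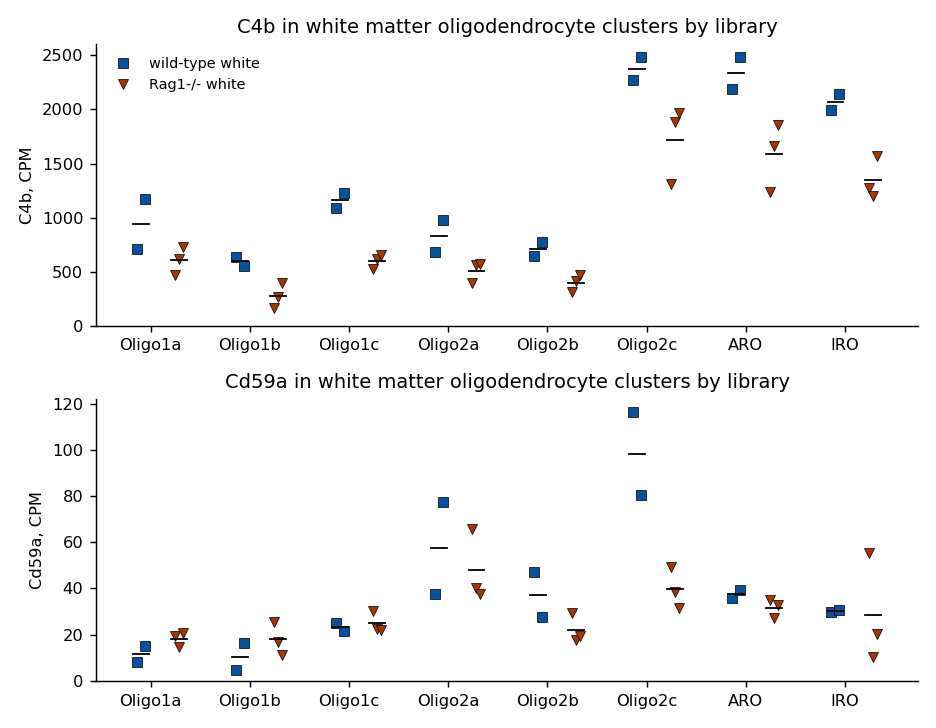
C4b (above) and Cd59a (below) in CPM in the oligodendrocyte clusters of white matter, where each point is a library and each bar the mean of a genotype. C4b was highest in Oligo2c, age-related (ARO) and interferon-responsive (IRO) oligodendrocytes, and Cd59a of wild-type mice was highest in Oligo2c, at 116 and 80.4 CPM.

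Whether white matter oligodendrocytes of Rag1-/- mice differ in complement genes from those of wild-type mice was compared over 2 and 3 libraries. None of the 6 members tested passed in edgeR, beside 0.888% of all genes, and 1 had an unadjusted p under 0.05. That was C4b, with a log2 difference of −0.89 (SE 0.19, edgeR adjusted p = 0.116), and each of the 3 Rag1-/- libraries lay below both wild-type libraries. It passed in DESeq2 (adjusted p = 7e-05), without the filter on low counts (0.0265, edgeR) and without Rag1-/- white matter library 3 (log2 difference −1.09, adjusted p = 0.0381, edgeR). Within clusters the edgeR log2 differences were −0.84 in Oligo1 (adjusted p = 0.118), −0.79 in Oligo2 (0.0739), −0.50 in age-related oligodendrocytes (0.542) and −0.56 in IROs (0.282). No member passed in any of these 4 clusters in edgeR, beside 0.718%, 0.879%, 0.990% and 0.821% of all genes, in the same order, and the members with an unadjusted p under 0.05 numbered 1, 2, 1 and 1. C4b passed in Oligo1 and Oligo2 in DESeq2 (adjusted p = 0.000368 and 0.00113) and without the filter on low counts (0.0080 and 7.43e-05, edgeR). In Oligo2 it also passed without Rag1-/- white matter library 1 (0.0323) or 3 (0.0312, both edgeR). As given above, C4a was not listed for all cells of wild-type mice, and the part of this in the genotype difference of C4b cannot be told apart. The difference between the genotypes in the tissue effect of C4b was 0.94 on the log2 scale (SE 0.35, edgeR adjusted p = 1.00). With the pool of mice as a block, which in Rag1-/- mice sets 1 library against 1, it was 0.56 (adjusted p = 0.178, edgeR). In edgeR no gene of the table passed this test without the block (0%), 236 had an unadjusted p under 0.05, 37 passed with the block and DESeq2 passed 3, none of them a member.

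Across the 22 sums of library and merged cluster with at least 50 oligodendrocytes, the genes whose levels were most like those of C4b were Nol3 (Pearson r = 0.951), Sparc (0.944) and Stat3 (0.929), on log2(CPM + 10). Nol3 encodes an inhibitor of cell death, Sparc a secreted matrix-binding protein and Stat3 a transcription factor of cytokine signaling. For Cd59a the most alike were Tpm3 (0.907), Cdc42ep2 (0.874) and Cct2 (0.871). These sums share libraries, tissue and clusters, so the correlations are descriptions over 6062 genes and have no p.

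Cd59a, on chromosome 2 (chr2:104095801-104115354), is the mouse counterpart of the human pore inhibitor CD59 and was counted at low levels in oligodendrocytes. It reached 16.8 and 14.1 CPM in wild-type gray and 35.7 and 38.6 CPM in wild-type white matter, which did not overlap. In Rag1-/- mice it was 18.1 CPM in gray and 36.4, 23.9 and 25.8 CPM in white matter. The wild-type log2 difference was 1.32 (SE 0.21, edgeR adjusted p = 0.0257). This call was lost without gray matter library 1 (log2 difference 1.39, adjusted p = 0.106), gray matter library 2 (1.21, 0.314) or white matter library 2 (1.24, 0.149). In Rag1-/- mice the log2 difference was 0.68 (SE 0.24, edgeR adjusted p = 0.357). With the pool of mice as a block, a fit with 1 residual degree of freedom, it was 1.00, with an adjusted p of 1.1e-07 (edgeR). It then compares 1 gray with 1 white matter library, since Rag1-/- white matter libraries 2 and 3 have no gray partner, and its spread comes from the wild-type pools alone, so it is no replicated difference in Rag1-/- mice. In that fit 687 of 13069 genes passed, against 57 without the block. Between the genotypes in white matter Cd59a had a log2 difference of −0.32 (SE 0.17, edgeR adjusted p = 0.676).

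The tissue difference of Cd59a was larger in Oligo2 than in Oligo1 in wild-type mice, a contrast between clusters that was not tested. Oligo2 had 27.9 and 18.9 CPM in gray and 64.0 and 59.4 CPM in white matter (log2 difference 1.53, SE 0.27, edgeR adjusted p = 0.0203). That call was lost whichever of the 4 libraries was removed (adjusted p = 0.0531 to 0.448). Oligo1 had 11.5 and 11.4 CPM in gray and 15.5 and 18.3 CPM in white matter (log2 difference 0.61, adjusted p = 0.669, edgeR). With the pool as a block, Oligo1 passed (0.63, adjusted p = 0.0329, edgeR), where 644 of 12258 genes did, against 14 without the block. In wild-type white matter, Oligo2c had 116 and 80.4 CPM and Oligo2a 37.7 and 77.5 CPM, whereas Oligo1a and Oligo1b lay between 4.64 and 16.3 CPM. Oligo2c, a part of Oligo2, held 7.29% and 8.48% of the oligodendrocytes of wild-type white and 0.352% and 0.0894% of those of gray matter. The part of this make-up in the tissue difference of Oligo2 was not tested. Oligo2c of Rag1-/- white matter had 49.2, 38.6 and 31.6 CPM, below Oligo2a in each library. Oligo2a held 29.7%, 28.0% and 26.7% of the Cd59a UMIs of these oligodendrocytes in 16.4%, 16.7% and 18.3% of all their UMIs. For Oligo2c these shares were 11.4%, 12.3% and 10.6% in 8.47%, 7.57% and 8.69%. In Oligo2 the difference between the genotypes was −0.75 (SE 0.20, edgeR adjusted p = 0.219). It passed in edgeR without Rag1-/- white matter library 1 (−0.98, adjusted p = 0.00331) and without the filter on low counts (−0.73, adjusted p = 0.00736).

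Cd59b, a second copy of the gene next to Cd59a, is 87.0% identical over 759 aligned bases. Its oligodendrocyte UMIs numbered 0 and 9 in wild-type gray, 14 and 151 in wild-type white, 0 in Rag1-/- gray and 5, 0 and 7 in Rag1-/- white matter. In white matter Cd59b was lower in Rag1-/- than in wild-type mice (log2 difference −4.42, SE 0.80, edgeR adjusted p = 0.0447). The call was lost without wild-type white matter library 2 (adjusted p = 0.265) or any 1 of the 3 Rag1-/- libraries (0.113 to 0.211). It too was lost among cells under 20000 UMIs (0.0562). The lists of genes counted differed between the genotypes, and the part of this in the result cannot be told apart.

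C3, on chromosome 17 (chr17:57203970-57228136), encodes the protein on which the complement pathways converge. It was all but absent from oligodendrocytes, with 0 to 11 UMIs per library and at most 1.84 CPM. Summed over microglia, it was higher in white matter. Microglia-like cells of wild-type gray matter had 0.844 and 0.236 CPM, which is 1 UMI in each library, and those of white matter had 38.2 and 32.4 CPM. In microglia of Rag1-/- mice, by the authors' names, C3 was at 0.192 CPM (2 UMIs) in gray matter and 14.8, 14.4 and 16.5 CPM in white matter. White and gray matter did not overlap in either genotype. The ratio of white to gray matter was 91.0 in wild-type mice (95% counting interval 24.9 to 755) and 78.6 in Rag1-/- mice (21.6 to 650). In edgeR the log2 differences were 6.68 in wild-type (SE 0.44, adjusted p = 1.1e-05) and 6.46 in Rag1-/- mice (SE 0.43, adjusted p = 0.0007). Both calls held with any wild-type or any Rag1-/- white matter library left out, with wild-type adjusted p of at most 0.00364 and Rag1-/- adjusted p of at most 0.00155.

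The microglia of gray and white matter were spread differently over the clusters, which were not separate by tissue. In wild-type mice, a cluster led by P2ry12 held 97 and 344 cells of the gray and 4 and 51 of the white matter libraries, and a cluster led by Lpl and Spp1 held 5 and 6 against 108 and 316. Another microglia-like cluster, led by Fkbp5 and Tlr7, held 62 and 0 against 27 and 0, all from the first pool. In Rag1-/- mice, the authors' cluster Homeostatic1 held 1634 of 1732 gray matter microglia, against 785 of 3617, 248 of 707 and 577 of 1365 in the white matter libraries. Within Homeostatic1, C3 was at 0.102 CPM (1 UMI) in gray and at 0.328 to 1.73 CPM in white matter, both far below the white matter level of all microglia. The part of the cluster make-up in the tissue differences of microglia was not tested, for C3 or for the other genes below.

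Read against all genes, 2 of 6 members tested, C4b and C3, were called in wild-type microglia-like cells, beside 6.20% of all 12042 genes. In Rag1-/- microglia 1 of 6 was called, beside 3.0% of all 12662 genes. In white matter, microglia-like cells of Rag1-/- origin had 14.6, 14.2 and 13.5 CPM of C3, all below both wild-type libraries. The ratio of Rag1-/- to wild-type was 0.428 (95% counting interval 0.365 to 0.502) and the log2 difference −1.25 (SE 0.20, edgeR adjusted p = 0.0083). It did not pass without Rag1-/- white matter library 2 (−1.24, adjusted p = 0.0597). This comparison called 2 of 6 members, beside 2.70% of all genes. The genotypes were clustered separately, so a cluster of 1 genotype need not match a cluster of the other. In white matter, the wild-type cluster led by Lpl and Spp1 held 108 of 141 and 316 of 407 microglia-like cells. The Rag1-/- cluster led by Spp1 held 1104 of 3219, 117 of 472 and 231 of 998. Another Rag1-/- cluster shared Ly86 and Ctss among its leading genes with the wild-type cluster and held 1289, 138 and 361. In both genotypes, unnamed clusters with Spp1 or Lpl among their leading genes were left out. P2ry12, a gene of resting microglia, was at 1101 and 1153 CPM in wild-type and at 1624, 2011 and 1983 CPM in Rag1-/- white matter microglia-like cells. The other microglial genes did not all go the same way. Cx3cr1 was at 3301 and 3179 CPM against 2831, 4824 and 4418 CPM, and Csf1r at 2090 and 2292 CPM against 1764, 2531 and 2455 CPM. Tmem119 was at 757 and 645 CPM against 792, 786 and 848 CPM. The part of the cluster make-up in the genotype differences of microglia-like cells was not tested.

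C3 was not spread evenly over the microglia clusters of Rag1-/- white matter. White matter-associated microglia (WAM) had 22.4, 31.2 and 45.2 CPM and the cluster Homeostatic2 had 16.3, 17.5 and 16.2 CPM. Homeostatic1 had 0.512, 1.73 and 0.328 CPM and lay below every other cluster in each of the 3 libraries. Interferon-responsive microglia (IRM) had 3.68, 18.8 and 26.2 CPM from 1, 2 and 2 UMIs, and Activated microglia had 5.27, 9.67 and 9.61 CPM from 3 UMIs each. In the gray matter library, Homeostatic2 held 1 C3 UMI in 29 cells and Homeostatic1 held 1 in 1634 cells. WAM, IRM and Activated had 0 UMIs there in 27, 15 and 27 cells. Thinned to 2000 UMIs, 3.99%, 4.74% and 5.75% of WAM of the white matter libraries had a C3 UMI, against 0.0556%, 0.253% and 0.0399% of Homeostatic1. Without thinning the WAM shares were 13.4%, 19.0% and 16.7%. Oligodendrocytes of the white matter libraries had 0.00914% to 0.254% with a C3 UMI after thinning. The cells were clustered with these counts, so the cluster levels are a description.

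**Figure D3:**
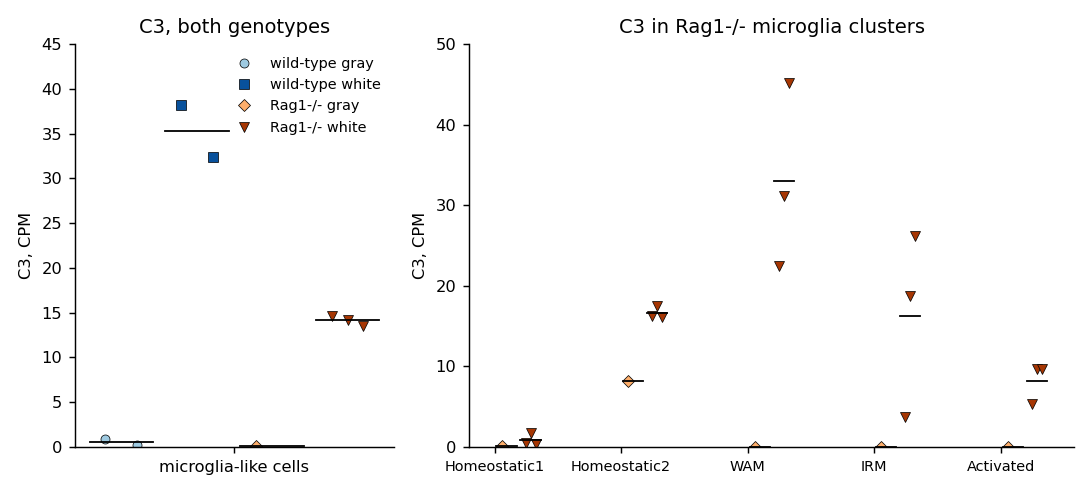
C3 in CPM in microglia-like cells of both genotypes (left) and in the microglia clusters of Rag1-/- mice by the authors' names (right), each point a library and each bar a group mean. Gray matter lies at or under 0.844 CPM in the left plot, and the white matter points of WAM reach 22.4 to 45.2 CPM in the right plot.

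Over the 13 sums of library and microglia cluster with at least 50 cells in Rag1-/- mice, the genes with levels most like those of C3 were Cd72 (r = 0.984), Axl (0.962) and Lpl (0.958). Cd72 encodes a membrane receptor of immune cells, Axl a receptor for phosphatidylserine-bound ligands and Lpl lipoprotein lipase. C3 itself had a mean of 13.5 CPM there.

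The 3 C1q genes lie side by side on chromosome 4 and encode the chains of 1 molecule. C1qa spans chr4:136895917-136898803, C1qb chr4:136880129-136886187 and C1qc chr4:136889804-136893065, all on the minus strand. The sequences upstream of C1qb (chr4:136886201-136886450) and C1qc (chr4:136893066-136893164) are shown because the genes are read together in the same cells (RefSeq starts, GRCm38.p6). For C1qc the 250 bases upstream of the RefSeq start were cut to the 99 that also lie upstream of the GENCODE start. Capitals mark GAGGAA or its reverse complement, the core of sites for factors of the ETS family such as PU.1.
C1qb: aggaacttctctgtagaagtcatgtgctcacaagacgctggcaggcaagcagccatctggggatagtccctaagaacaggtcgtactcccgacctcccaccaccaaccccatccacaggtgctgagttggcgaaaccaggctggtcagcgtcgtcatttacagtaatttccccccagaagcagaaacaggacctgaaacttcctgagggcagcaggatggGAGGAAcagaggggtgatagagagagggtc
C1qc: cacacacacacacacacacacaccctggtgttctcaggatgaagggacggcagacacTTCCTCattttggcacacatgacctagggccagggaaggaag
Each holds 1 match, and 23.25% of 32851 promoters hold at least 1 match in 250 bases on either strand, so a match is common. The motif was chosen as a known one for microglial genes and describes the letters alone.

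In microglia-like cells the C1q genes were the highest members. C1qa lay between 7792 and 11302 CPM over the 8 libraries, C1qb between 7095 and 8876 CPM and C1qc between 6261 and 7254 CPM. White and gray matter did not overlap for C1qa, with 10746 and 9168 CPM against 8752 and 7792 CPM in wild-type mice. The log2 differences in wild-type mice were 0.49 for C1qa (SE 0.14, adjusted p = 0.0681), 0.29 for C1qb (0.280) and 0.27 for C1qc (0.311), with adjusted p from edgeR. C1qa passed in DESeq2 (adjusted p = 0.00838), among cells under 20000 UMIs (0.0258, edgeR), with the pool of mice as a block (0.0228, edgeR, where 1830 of 12042 genes passed, against 747), with clusters of low depth counted as microglia-like (0.0396, edgeR) and without white matter library 2 (0.0215, edgeR). In microglia of Rag1-/- mice, C1qa was at 8965 CPM in gray and 11132, 9849 and 10030.2 CPM in white matter. There the log2 differences were 0.45 for C1qa (SE 0.11, adjusted p = 0.0743), 0.42 for C1qb (SE 0.09, 0.0579) and 0.26 for C1qc (SE 0.10, 0.298), in edgeR. C1qa and C1qb passed without Rag1-/- white matter library 1, with log2 differences of 0.37 and 0.39 (edgeR). That fit sets white matter of batch 2 against gray matter of batch 1, so it cannot tell tissue from batch. Far more genes passed in it than with all libraries. Between the genotypes in white matter the differences were 0.12 for C1qa (SE 0.13), 0.15 for C1qb (SE 0.12) and 0.01 for C1qc (SE 0.12), none past the test (adjusted p = 0.623 to 0.984, edgeR).

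The chains were also alike across the clusters of Rag1-/- microglia. C1qa ranged from 8792 to 12010.2 CPM, C1qb from 7813 to 10266 CPM and C1qc from 5695 to 7542 CPM over the 5 clusters and 3 white matter libraries. Homeostatic2 had the highest C1qa in 3 of 3 white matter libraries, with 12010.2, 10716 and 11203 CPM. Between WAM and Homeostatic1, where C3 was far apart, C1qa was at 10574, 9165 and 9374 CPM against 9633, 9426 and 9449 CPM and overlapped. The genes most like C1qa over the 13 sums were Ctss (r = 0.882), Hebp1 (0.849) and Phf11b (0.847). For C1qb they were Psme1 (0.866), Fmc1 (0.777) and Ndufa6 (0.769), and for C1qc Ap1s2 (0.913), Tnfrsf11a (0.903) and Fam111a (0.897).

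Oligodendrocytes also carried C1q UMIs, which differed more between pools of mice than between the tissues of a pool. C1qa was at 241 and 14.0 CPM in the wild-type gray and 194 and 10.98 CPM in the wild-type white matter libraries. In Rag1-/- mice it was 85.0 CPM in gray and 77.0, 15.7 and 33.4 CPM in white matter. The libraries of the first wild-type pool were both high and those of the second both low, and in each pool with both tissues the 3 chains were higher in gray matter. As a share of the level in microglia-like cells of the same library, C1qa was 2.72%, 0.180%, 1.79% and 0.120% in the wild-type libraries (gray 1 and 2, white 1 and 2) and 0.9497%, 0.681%, 0.162% and 0.333% in the Rag1-/- libraries (gray, white 1 to 3). The 10 microglial genes had median shares of 1.72%, 0.182%, 1.08%, 0.155%, 0.664%, 0.545%, 0.242% and 0.402% in the same order. C1qa lay inside the range of these 10 genes in each library, and C1qb lay above it in 1 library, wild-type white matter library 1 (2.15%, against at most 1.82%).

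**Figure D4:**
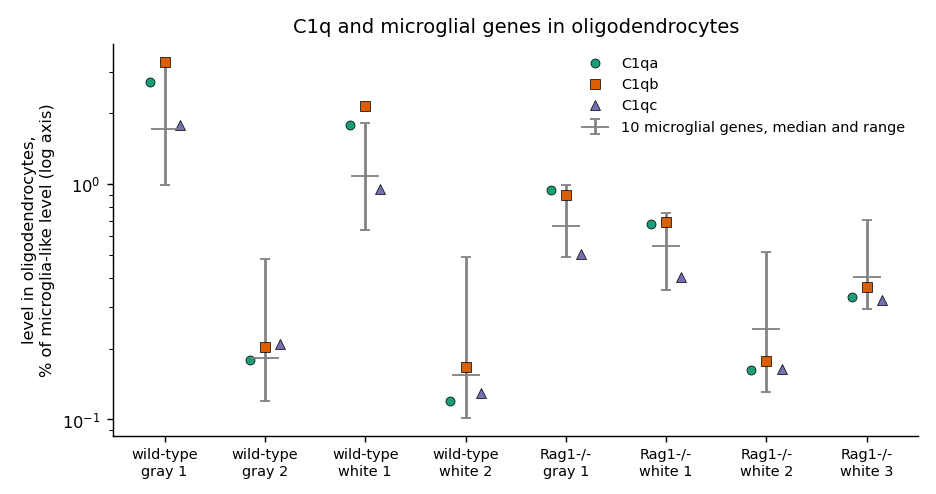
Levels of C1qa, C1qb, C1qc and 10 microglial genes in oligodendrocytes as a percentage (log axis) of their level in microglia-like cells of the same library, with the bar from the lowest to the highest of the 10 genes. The C1q points move with the microglial genes, from 0.120% to 3.31%, and both libraries of the first wild-type pool stand highest.

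Of the oligodendrocytes in the libraries of the first wild-type pool, 97.5% and 97.4% had at least 1 C1q UMI, and 53 of 284 and 51 of 494 had 10 or more, where the median microglia-like cell had 165 and 235. In the second pool 36.8% and 27.9% had a C1q UMI and none had 10 or more. Microglia-like cells made up 28.3% and 15.1% of the cells of the first pool and 19.8% and 7.59% of the second. The chains were not in the proportions of microglia in each library. C1qc made up 19.8% and 15.5% of the C1q UMIs of oligodendrocytes in the first wild-type pool and 29.3% and 27.3% of those of microglia-like cells. In the second pool it made up 31.5% and 26.6% against 29.6% and 28.2%. RNA of other cells in the droplets and joint capture of cells were not tested as the source of these UMIs. No C1q gene passed between the tissues in wild-type oligodendrocytes in edgeR (log2 differences −0.25, −0.52 and −0.82, adjusted p = 0.919 to 1.00), and the values were positive without gray matter library 1 (1.44 to 2.80) or without white matter library 2 (0.14 to 0.73). With the pool as a block, the 3 genes passed as lower in white matter (−0.31, −0.42 and −0.75, adjusted p = 0.0261, 0.000459 and 2.2e-08, edgeR), in a fit with 1 residual degree of freedom in which 1311 of 13069 genes passed, against 131 without the block. The summed level of the 10 microglial genes in oligodendrocytes fell from gray to white matter in both pools, from 601 to 359.9 CPM and from 91.8 to 72.7 CPM.

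C4b in microglia was low and followed the white matter difference of oligodendrocytes. Microglia-like cells had 5.07 and 8.72 CPM in wild-type gray and 56.9 and 155 CPM in wild-type white matter. In Rag1-/- mice they had 0.671 CPM in gray and 6.38, 14.4 and 29.6 CPM in white matter. C4b passed between the tissues in wild-type mice (log2 difference 4.04, SE 0.73, edgeR adjusted p = 0.0077), a call lost without gray matter library 1 (3.85, 0.0697) or 2 (4.66, 0.117). It also passed between the genotypes in white matter (−2.71, SE 0.52, edgeR adjusted p = 0.0207), a call lost without wild-type white matter library 2 (−1.81, 0.266), without Rag1-/- white matter library 2 (−2.62, 0.111) or with clusters of low depth counted as microglia-like (−2.48, 0.0528). In Rag1-/- microglia by the authors' names the tissue difference was 4.601 (SE 1.08, edgeR adjusted p = 0.0757). C4b passed there in DESeq2 (0.00655) and, in edgeR, without the filter on low counts (0.00482). It also passed in edgeR without Rag1-/- white matter library 1 (log2 difference 5.04) or 3 (3.92). Without library 1, tissue coincides with batch, and far more genes passed than with all libraries.

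Beside these calls, the 8 oligodendrocyte markers summed to 1485 and 1873 CPM in microglia-like cells of wild-type gray, 1408 and 4112 CPM in wild-type white, 383 CPM in Rag1-/- gray and 416, 905 and 1605 CPM in Rag1-/- white matter, with none of the 8 at 0. As a share of the oligodendrocyte level of the same library, C4b was at 3.94%, 9.76%, 4.35% and 10.05% in the wild-type libraries and 2.29%, 1.06%, 2.12% and 3.26% in the Rag1-/- libraries. The 8 markers had medians of 3.92%, 4.14%, 3.10% and 8.65% and of 0.972%, 0.895%, 1.66% and 2.96%. C4b lay inside the range of the markers in 5 of the 8 libraries and above it in wild-type gray and white matter library 2 and in Rag1-/- gray matter (7 UMIs). The part of oligodendrocyte RNA in the C4b counts of microglia was not tested.

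Outside oligodendrocytes and microglia the members had distinct patterns, described over cell types with at least 10 cells in a library. Astrocyte-like cells had 33.7, 33.4 and 33.5 CPM of C4b in the 3 gray matter libraries. In white matter they had 981 CPM in wild-type library 2 (18 cells) and 449, 217 and 358 CPM in the Rag1-/- libraries (139 to 400 cells). The astrocyte-like clusters included 1 of low depth in each genotype. In Rag1-/- mice it held 56 gray and 13, 116 and 191 white matter cells. A cluster led by F3 and Gja1 held 563 gray and 65, 84 and 122 white matter cells. The parts of this make-up and of oligodendrocyte RNA in these counts were not tested. Border macrophage-like cells had 149 to 423 CPM of C4b and 4777 to 10407 CPM of C1qa, which they share with microglia. C3 reached 67.9 to 348 CPM in neutrophil-like cells, 151 to 328 CPM in monocyte or other myeloid-like cells of Rag1-/- mice and 505 CPM in the 18 astrocyte-like cells of wild-type white matter library 2. Cd59a reached 107 to 282 CPM in endothelial-like and 71.7 to 115 CPM in choroid plexus-like cells, and microglia-like cells had 0 to 2.40 CPM. These counts rest on few cells, and no test was made between cell types.

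**Figure D5:**
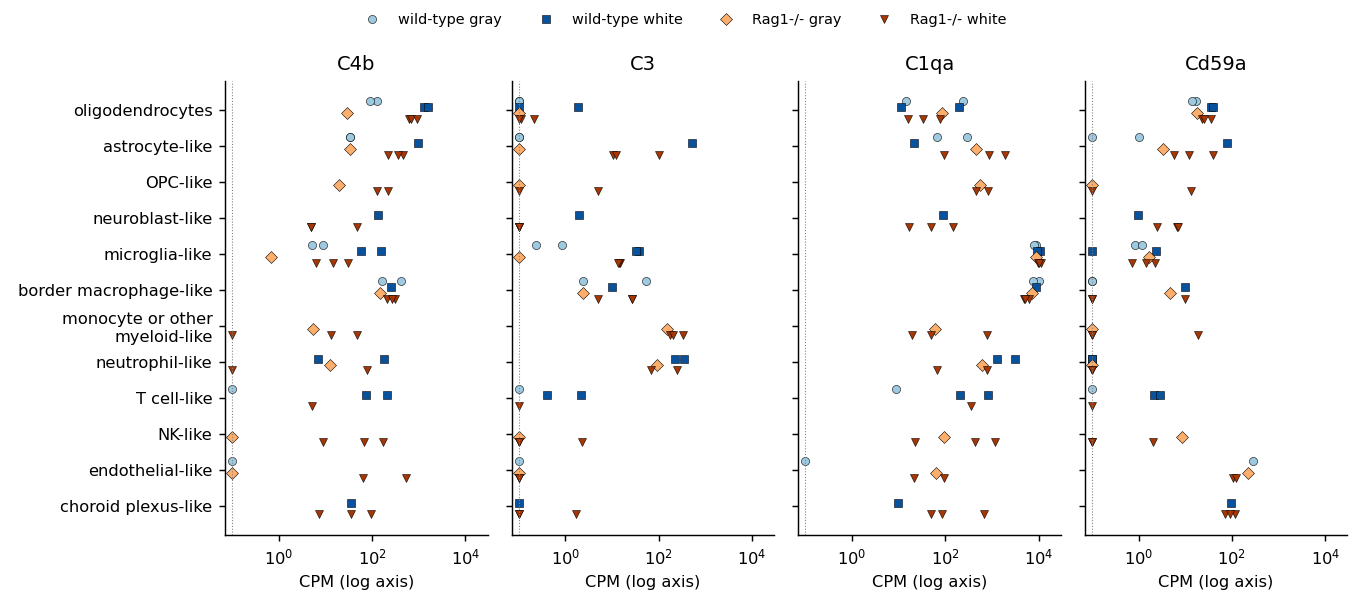
C4b, C3, C1qa and Cd59a in CPM (log axis) by cell type, each point a library with at least 10 cells of the type, colored by tissue and genotype. Points at the dotted line are 0.1 CPM or less, including 0. C1qa stands highest in microglia-like and border macrophage-like cells, and C4b in oligodendrocytes of white matter.

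Serping1 (chr2:84765387-84775444) was barely counted. It had 3 to 32 UMIs in all cells of a library and 0 to 2 in the oligodendrocytes of a library, so it did not pass the filter on low counts and no difference was detectable at this depth. Microglia-like cells had 0 to 2 UMIs per library.

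The other genes of the pathway were taken from a list of 23 components, 17 regulators and 11 receptors. In oligodendrocytes, 8 components, 9 regulators and 9 receptors were tested. Between wild-type tissues, 1 component and 1 regulator rose in white matter and none fell, beside 1.00% of all genes called, with medians of 0.86 over the components tested, −0.07 over the regulators and −0.39 over the receptors, beside −0.01 over all genes. Masp1, a protease of the lectin pathway, had 1.10 and 0.0796 CPM in gray and 15.6 and 21.3 CPM in white matter (log2 difference 6.06, SE 0.80, edgeR adjusted p = 0.0124). It had 3 and 1 UMIs in gray matter, and the call was lost without gray matter library 2 (4.15, 0.269) or white matter library 2 (5.76, 0.0545). Pros1, which encodes protein S, a ligand of phagocyte receptors that also binds a complement inhibitor, had 4.02 and 4.30 CPM in gray and 18.3 and 21.8 CPM in white matter (2.26, SE 0.26, edgeR adjusted p = 0.0083). This call was lost without the same libraries (0.176 and 0.0502). In Rag1-/- oligodendrocytes none of these genes passed between the tissues in edgeR (1 component, 2 regulators and 0 receptors had an unadjusted p under 0.05), and between the genotypes Cd59b alone did, as given above. Masp1 and Pros1 were at 0.313 and 5.12 CPM in Rag1-/- gray matter, at 9.20, 3.90 and 9.48 CPM and at 12.1, 8.54 and 12.9 CPM in Rag1-/- white matter.

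In microglia, Itgax and Colec12 were the genes of the list that rose in white matter in both genotypes. As for C3, the microglia of the tissues were spread differently over the clusters. Itgax was among the 10 leading genes of a cluster with 12 cells in Rag1-/- gray and 1104, 117 and 231 cells in Rag1-/- white matter. Itgax, the CD11c chain of a receptor for cleaved C3, had 5.07 and 6.60 CPM in wild-type gray and 101 and 89.7 CPM in wild-type white matter (log2 difference 4.14, SE 0.22, edgeR adjusted p = 2.8e-06). In Rag1-/- microglia it had 3.56 CPM in gray and 53.1, 58.4 and 62.5 CPM in white matter (4.26, SE 0.23, edgeR adjusted p = 0.0003). Colec12, a collectin receptor, had 0 and 3 UMIs in wild-type gray and 18 and 63 UMIs in wild-type white matter (adjusted p = 0.0063, edgeR, lost without gray matter library 2 at 0.075). It had 7 UMIs in Rag1-/- gray and 176, 24 and 28 in white matter (3.29, SE 0.66, adjusted p = 0.0476, edgeR, lost without Rag1-/- white matter library 2 at 0.0945). Of the receptors 1 of 9 tested was called in each of these comparisons and of the components 1 of 4 and 1 of 5, beside 6.20% and 3.0% of all genes. Their medians were 0.20 and 0.12 for the receptors and −0.43 and 0.64 for the components. No regulator passed in edgeR in either, of 8 and 7 tested (3 and 2 had an unadjusted p under 0.05), and their medians were −0.45 and 0.09.

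Between the genotypes in white matter microglia-like cells, Itgax was lower in Rag1-/- mice, at 48.6, 54.2 and 55.4 CPM (−0.80, SE 0.14, edgeR adjusted p = 0.0130). The call was lost without wild-type white matter library 1 (−0.69, 0.0522) or Rag1-/- white matter library 2 (−0.80, 0.0716), and with the authors' names for Rag1-/- microglia (−0.60, 0.0688). As given for C3, the genotypes were clustered separately. Itgax was a leading gene of the Rag1-/- cluster led by Spp1, and the part of the cluster make-up in its genotype difference was not tested. Vtn, which encodes vitronectin, was also called lower (adjusted p = 0.0451, edgeR). It had 0 and 87 UMIs in the wild-type and 5, 0 and 4 in the Rag1-/- white matter libraries, so this rests on wild-type white matter library 2. Vtn was not called by DESeq2 (0.323) or, in edgeR, without Rag1-/- white matter library 1 (0.0787) or 2 (0.171). Nor was it called in edgeR with clusters of low depth counted as microglia-like (0.103) or with the authors' names for Rag1-/- microglia (0.0808). No other regulator or receptor and no component of the list passed there in edgeR.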

How the data were processed

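UMI counts of 8 libraries were read as the authors deposited them, per cell and gene, with genes aligned and counted by Cell Ranger. The labels name version 4 for all libraries, whereas the methods name a different version for each experiment. Cells were filtered by the authors, and their oligodendrocyte clusters and Rag1-/- microglia clusters were taken from the deposited names. Of 7430 named Rag1-/- microglia 7421 were found. Columns of 8171 cells from 4 libraries of another series were not used. Other cells were clustered per genotype with numpy 2.4.6, scikit-learn and igraph (2000 variable genes, 30 components, 15 neighbours, Leiden resolution 1). Clusters were named when at least 3 markers were 2-fold higher and detected in 10% of cells. A cluster stayed unnamed where its 10 leading genes held more markers of another type, or where its median depth was under 1/3 of that of its libraries and none of its own markers led it. Doublets were not called again.

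UMIs were summed per library and cell set and tested with the quasi-likelihood test of edgeR 4.0.16 in R 4.3.3 (TMM, filter on low counts, Benjamini-Hochberg adjusted p of at most 0.05). The SE is the log2 difference divided by the square root of F. Libraries are the replicates, and p-values measure the spread between them. Intervals are 95% and cover counting error only. Likeness used log2(CPM + 10). Deviations of the wild-type libraries from their group means correlated between tissues within a pool (r = 0.428, 13069 genes), and the pool was used as a block in an alternative with 1 residual degree of freedom. DESeq2 1.42.0, other size factors, no filter, cells under 20000 UMIs and leaving out each library were further alternatives, and 2 on microglia naming were added after seeing the data. The scripts were tested on simulated counts. Named genes are the 7 members, the called genes of the pathway lists and the 3 most alike genes. Members and lists were chosen with earlier results of these data known. Sequences come from RefSeq (GRCm38.p6, 4 of 7 members had a promoter) and GENCODE vM21.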

Additional observations from a re-analysis of the deposited data

How the results depend on the processing

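Of 395 values of single genes under alternatives, 337 kept their direction and side of the threshold, 14 lost and 27 gained a call and 17 turned direction, and the tissue difference of C4b kept its direction in 58 of 58. The number of members called moved by over 1.5 times with the pool as a replicate block in oligodendrocytes between wild-type tissues (5, beside 1311 of 13069 genes), between Rag1-/- tissues (2, beside 687 of 13069) and in Oligo1 (4, beside 644 of 12258). It also did between the genotypes in oligodendrocytes with DESeq2 (1, beside 195 of 13069) and no filter (1, beside 148 of 16616), in Oligo1 with DESeq2 (1, beside 119 of 12258) and no filter (1, beside 137 of 16238), in Oligo2 with DESeq2 (1, beside 112 of 11716) and no filter (2, beside 216 of 16102), in age-related oligodendrocytes with no filter (2, beside 1.32% of 15274) and in microglia-like cells with low-depth clusters (1, beside 213 of 12110). In Rag1-/- microglia it was 2 with DESeq2 (beside 588 of 12662) and 2 without the filter (beside 669 of 17421). Leaving out 1 library gave 0 to 2 members called in wild-type oligodendrocytes, 1 to 1 in Rag1-/-, 0 to 1 between genotypes, 1 to 4 in Rag1-/- microglia (4 where 2803 of 12292 genes were called), 1 to 3 in wild-type microglia-like cells, 0 to 2 between genotypes there, 1 to 1 in Oligo2 between wild-type tissues, and between genotypes 0 to 2 in Oligo2, 0 to 2 in age-related oligodendrocytes and 0 to 1 in IROs. The genes called in these fits numbered 0 to 107, 15 to 251, 82 to 136, 177 to 2803, 194 to 709, 117 to 402, 6 to 109, 82 to 168, 84 to 158 and 27 to 54, in the same order. The mean share of oligodendrocytes with C4b, 77.6%, 14.4%, 58.0% and 5.37% in wild-type white, wild-type gray, Rag1-/- white and Rag1-/- gray matter, was 63.1%, 8.51%, 42.0% and 2.84% when thinned to 1000 UMIs and 93.1%, 36.8%, 82.8% and 17.3% without thinning. C1qc in microglia-like cells between the genotypes (0.01) was −0.0069 with DESeq2, −0.0073 with RLE size factors, −0.017 in cells under 20000 UMIs, −0.0050 with the groups compared alone and −0.054 with low-depth clusters, and ranged from −0.11 to 0.12 with 1 library left out, as C1qa did from −0.041 to 0.27. In oligodendrocytes these ranges were −3.40 to 2.80, −3.42 to 2.71 and −2.87 to 1.44 for C1qa, C1qb and C1qc between wild-type tissues, and −2.15 to 1.98, −2.30 to 1.56 and −1.73 to 1.27 between the genotypes. The cause was not tested. The block could not be fitted between the genotypes, which share no pool, or in Rag1-/- microglia, where it leaves no spread. The single Rag1-/- gray matter library and 2 libraries per wild-type group limit each comparison.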

Other observations

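C3 was high in few astrocyte-like cells of white matter. The 18 astrocyte-like cells of wild-type white matter library 2 had 505 CPM, and the 139 of Rag1-/- white matter library 1 had 102 CPM. Those of the 3 gray matter libraries had 0 UMIs in 59, 160 and 655 cells, and those of Rag1-/- white matter libraries 2 and 3 had 10.7 and 12.1 CPM. Serping1, at most 32 UMIs in a library, had 10 UMIs in the astrocyte-like cells of wild-type white matter library 2 and 17 in those of Rag1-/- white matter library 1.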
